A study of Mus musculus with 3 samples.

Results

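The cytosolic heat shock chaperones described here are 10 genes out of the 55536 genes in the deposited gene tables, chosen from a list of gene names. They comprise the HSP70 genes Hspa8, Hspa1a and Hspa1b, the HSP110 gene Hsph1, the HSP90 genes Hsp90ab1 and Hsp90aa1, the HSP40 genes Dnaja1 and Dnajb1, the small heat shock protein gene Hspb1 and the regulator gene Hsf1. All 10 symbols were found, each with a single gene identifier. The cells were C57BL/6J macrophages, grown from bone marrow (BMDM) as primary cells. They received Lipid A, the Toll-like receptor 4 ligand of bacterial endotoxin, at 100 ng/ml for 12 h, were kept without it for 12 h, and then received 100 ng/ml again for 10 min. Total RNA of the cytosolic fraction, depleted of ribosomal RNA, was sequenced in 3 libraries of this single condition, named replicates 1, 2 and 3. All 3 libraries carry the same donor identifier, sex and age were not collected, and separate animals are not stated. A p-value here thus reflects the spread of these libraries alone, which may be technical. Untreated, singly treated and nuclear RNA were not analysed here, so every value is a level 10 min after restimulation and not a response to Lipid A.

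The libraries held 32108408, 53165872 and 57117456 expected counts, which are estimated read counts per gene. Levels are given as TPM, a measure per transcript length in which each library has the same total. The share of TPM in nuclear-encoded protein-coding genes was 34.3%, 27.8% and 27.8%, in the order of the replicate numbers, while the noncoding 7SL RNA alone took 52.2%, 62.8% and 56.7%. A low TPM of a coding gene here is thus a lower number than the same gene would have in a table of coding genes alone. Of 12 macrophage markers 11 reached 10 TPM in every library, with sums of 5529, 4682 and 5090 TPM, and Cx3cr1 was the exception at 0.110 ± 0.0100 TPM (SD, n = 3). The summed markers of lymphocytes, erythroid cells, dendritic cells, fibroblasts, mast cells and megakaryocytes stayed at or below 0.450 TPM in each library. Neutrophil markers summed to 7.45, 7.11 and 11.3 TPM, from S100a9 and S100a8, and Ly6g was at 0 counts. Replicate 1 stood apart in RNAs that are kept in the nucleus: 6 of them summed to 1432 TPM there, against 133 and 170 TPM in replicates 2 and 3. Malat1 made up most of this, at 1333, 118 and 152 TPM. Xist stood at 32.6, 0.420 and 0.350 TPM, and Meg3 and Miat had 0 counts in every library. The test across genes, the ratios and the library differences are therefore also given without replicate 1.

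Chaperones bind unfolded proteins and help them to fold or to be degraded. HSP70 proteins are ATP-driven clamps that HSP40 proteins (J-domain proteins) load with clients and HSP110 proteins recharge with nucleotide. HSP90 proteins then finish the folding of many kinases and receptors, including signalling proteins of innate immunity in macrophages. Some of these genes are constitutive, meaning that unstressed cells express them at high levels, and others are inducible by heat or misfolded protein. HSF1, the main heat shock factor, drives that induction as a trimer bound to heat shock elements, arrays of GAA units in alternating orientation. By this textbook division Hspa8, Hsp90ab1 and Dnaja1 were taken as constitutive, and Hspa1a, Hspa1b, Hsp90aa1, Hsph1, Dnajb1 and Hspb1 as inducible. Hsf1 was placed in neither class. The division is not sharp, since Hsp90aa1 is also expressed without stress and Dnaja1 also responds to heat.

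Constitutive chaperone RNA was abundant in the restimulated macrophages and inducible chaperone RNA, other than Hsp90aa1, lay below the median of detected coding genes. Mean levels spanned from 521 TPM for Hspa8 to 0.107 TPM for Hspb1. Of the 10 genes 8 reached 1 TPM in every library, and 4 (Hspa8, Hsp90ab1, Hsp90aa1 and Dnaja1) reached 10 TPM in every library. Hspa1b fell short of 1 TPM in replicate 2 alone, and Hspb1 in all libraries. For comparison, 9110 of 22015 nuclear-encoded protein-coding genes reached 1 TPM in every library, and their median level was 8.71 TPM. Of these detected genes, 45.4% had lower mean levels than Hsph1, 37.6% lower than Dnajb1 and 28.4% lower than Hsf1. These cutoffs depend on the scale. With TPM rescaled to nuclear-encoded coding genes, 9 members reached 1 TPM and 7 reached 10 TPM in every library, and Hspa8 stood at 1737 ± 371, Hsph1 at 25.2 ± 5.99, Dnajb1 at 20.1 ± 2.73 and Hsf1 at 15.1 ± 1.65 rescaled TPM. In bulk RNA, fewer expressing cells and less RNA per cell cannot be told apart. The descending order was Hspa8, Hsp90ab1, Hsp90aa1, Dnaja1, Hsph1, Dnajb1, Hsf1, Hspa1a, Hspa1b and Hspb1. Among neighbours in this order, the library values of Hsp90aa1 and Dnaja1 overlapped, as did those of Hsph1 and Dnajb1 and those of Hspa1a and Hspa1b. The other neighbouring genes did not overlap.

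**Figure D1:**
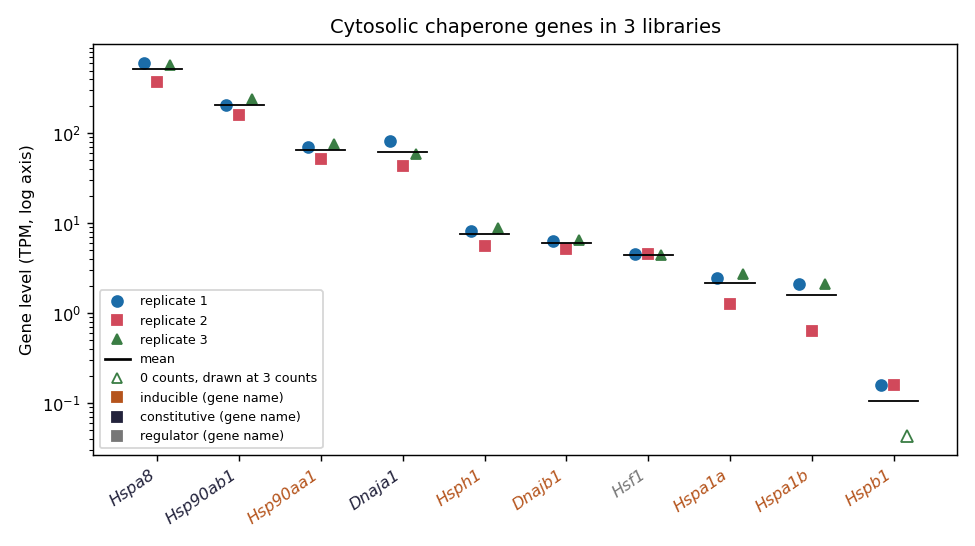
TPM (log axis) of each of the 10 genes in replicates 1, 2 and 3, with the mean as a line. Gene names are coloured by class, and the open triangle marks Hspb1 in replicate 3, which had 0 counts and is drawn at the level of 3 counts, 0.0429 TPM. The 3 constitutive genes and Hsp90aa1 lie above 40 TPM in every library, and the other genes lie below 10 TPM.

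Hspa8 encodes HSC70, the housekeeping HSP70 that also uncoats clathrin vesicles and carries out chaperone-mediated autophagy. Its gene lies on mm10 at chr9:40800984-40810087 on the plus strand (ENSMUSG00000015656.17). Hspa8 stood at 612, 373 and 578 TPM in replicates 1, 2 and 3 (521 ± 129, SD, n = 3), from 55224, 70513 and 120745 expected counts. Replicate 2 was the low one. It was the highest of the 10 genes in each library, ranked 56 among the nuclear-encoded protein-coding genes by mean TPM, and made up 59.4 ± 1.92% of the summed TPM of the 10 genes. The coding genes with the most similar levels over the 3 libraries were Cd52, Lst1 and Bst2. Their distances on log2(TPM + 1), summed as Euclidean distance over the 3 libraries, were 0.34, 0.42 and 0.53. Hspa8 hosts small nucleolar RNA genes in its introns, of which Snord14c, Snord14d and Snord14e had 0 counts. They cover 86 to 90 bases each, and the libraries were made with inserts of 250 to 400 bases. The 0 counts therefore do not show that these RNAs were absent. Hspa8 has 11 annotated pseudogenes with at least 90% identity over at least 200 bases, and 5 of them received counts. Those counts came to 703 in all libraries together, which is 0.285% of the counts of Hspa8.

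Hspa1a and Hspa1b encode the stress-inducible HSP70 and lie side by side on the minus strand, at chr17:34969190-34972156 (ENSMUSG00000091971.3) and chr17:34956436-34959238 (ENSMUSG00000090877.3). Hspa1a stood at 2.49, 1.28 and 2.74 TPM (2.17 ± 0.781), from 313, 328 and 775 counts. Hspa1b stood at 2.11, 0.630 and 2.10 TPM (1.61 ± 0.852), from 249, 151 and 561 counts. For both genes replicate 2 was low, and Hspa1a exceeded Hspa1b by 1.18-fold, 2.03-fold and 1.30-fold in replicates 1, 2 and 3. Replicates 1 and 3 were close in TPM but less so after the rescaling to coding genes. There Hspa1a stood at 7.25, 4.61 and 9.87 and Hspa1b at 6.15, 2.27 and 7.57 rescaled TPM. Among detected nuclear-encoded coding genes, 9.75% had lower mean levels than Hspa1a and 4.46% lower than Hspa1b. The coding genes nearest to Hspa1b over the 3 libraries were Apoc1, Fscn1 and Gm29094, at distances of 0.29, 0.30 and 0.34. The messages of Hspa1a and Hspa1b are 99.2% identical over 2201 aligned bases, with 12 mismatches and a longest identical stretch of 638 bases. How reads are split between them is therefore uncertain. The authors' deposited posterior SD of the Hspa1b count was 9.60, 9.37 and 14.0 in the 3 libraries, which is small beside the counts. Its deposited credibility interval, whose level is not stated in the sources, ran from 0.499 to 0.746 TPM in replicate 2 and from 1.77 to 2.37 TPM in replicate 1. The sum of both genes was 4.60, 1.91 and 4.84 TPM. It depends little on the split, since the messages are of similar length, 2967 and 2803 bases. Hspa1a also overlaps the annotated gene Gm20481 on the opposite strand over 2225 bases, and Gm20481 had 0 counts.

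The promoters of this pair are shown because they are the best-known targets of HSF1 and because they are almost the same sequence. Both are RefSeq promoters on GRCm38.p6 (mm10), given 5′ to 3′ on the minus strand over the 250 bases before the start site. The regions are chr17:34972157-34972406 for Hspa1a and chr17:34959239-34959488 for Hspa1b, neither of which holds an annotated exon. Capitals mark GAANNTTC, a pair of GAA units facing each other, which is the core of a heat shock element.

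Hspa1a upstream: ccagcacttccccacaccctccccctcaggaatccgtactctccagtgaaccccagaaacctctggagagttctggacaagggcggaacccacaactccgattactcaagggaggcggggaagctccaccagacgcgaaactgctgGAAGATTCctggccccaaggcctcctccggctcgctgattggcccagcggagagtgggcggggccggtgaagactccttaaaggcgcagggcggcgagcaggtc
Hspa1b upstream: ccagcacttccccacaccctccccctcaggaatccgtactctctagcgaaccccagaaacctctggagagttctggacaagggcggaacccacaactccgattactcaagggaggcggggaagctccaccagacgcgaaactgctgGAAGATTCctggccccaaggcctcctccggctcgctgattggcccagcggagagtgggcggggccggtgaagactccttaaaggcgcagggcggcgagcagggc

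Over the RefSeq window of 300 bases, which adds 50 bases after the start site, 296 bases were identical (98.7%). Counted from 1 at the 5′ end with the Hspa1a base first, the differences were C44T, T47C and T249G in the printed bases, and C276T after the start site. In both promoters GAANNTTC is centred at -100.5 from the start site, and none of the differences falls in it. RefSeq promoters were at hand for 6 of the 10 genes, namely Hspa1a, Hspa1b, Hsph1, Dnaja1, Dnajb1 and Hspb1, with 10 windows in all because some genes have several start sites. A gene was counted where any of its windows held the letters. The letters searched were GAANNTTC and TTCNNGAA, each of which reads the same on both strands and which can overlap in longer arrays. Either one occurred in 5 of these 6 genes (Dnajb1 was the exception), against 17.0% of 27025 genes in the table. A longer array of 3 GAA units in alternating orientation with the same spacing, in either of its strands, occurred in Hsph1 alone of the 6, against 0.662% of all genes. CCAAT, searched on both strands, occurred in 5 of 6 genes against 41.1% of all genes, and TATAAA in 0 of 6 against 15.7%. Only exact letters were counted, so an array with a changed base in a unit was missed. Such a near match, with tgc in place of ttc, lies directly before the marked site in Hspa1a and Hspa1b. A match describes these letters and shows no binding, and a missing match does not show that a heat shock element is absent.

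Hsph1 encodes HSP110 (HSP105), a nucleotide exchange factor of HSP70, at chr5:149614287-149636376 on the minus strand (ENSMUSG00000029657.15). Hsph1 stood at 8.13, 5.60 and 8.84 TPM (7.52 ± 1.70), from 1115, 1427 and 2719 counts. Replicate 2 was again the low library. A retained-intron transcript of 751 bases, Hsph1-208, was given 20.4 ± 5.34% of the gene's TPM but 3.70 ± 1.27% of its counts. TPM divides by length, which raises short transcripts. With protein-coding transcripts alone the gene stood at 6.01 ± 1.68 TPM. The 2 motif sites in its promoter are printed because the second is the only exact 3-unit match among the 6 promoters. They lie at chr5:149636351-149636380 and chr5:149636287-149636316 on the minus strand. Exons of Hsph1 transcripts cover 26 bases of the first and all 30 bases of the second, and capitals mark the matches.

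Hsph1 site 1: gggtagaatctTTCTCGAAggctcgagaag
Hsph1 site 2: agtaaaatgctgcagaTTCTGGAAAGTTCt

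The HSP90 genes differed in level by about 3 times in every library. Hsp90ab1, which encodes the constitutive HSP90 beta, lies at chr17:45567775-45573271 on the minus strand (ENSMUSG00000023944.14). Hsp90ab1 stood at 207, 162 and 244 TPM (204 ± 40.8), from 21636, 34726 and 57333 counts. It was the second highest of the 10 genes and ranked 177 among nuclear-encoded protein-coding genes. Replicate 3 was highest and replicate 2 lowest. Hsp90aa1, which encodes the stress-responsive HSP90 alpha, lies at chr12:110690605-110702728 on the minus strand (ENSMUSG00000021270.13). Hsp90aa1 stood at 70.6, 51.3 and 75.4 TPM (65.8 ± 12.7), from 6472, 10691 and 17610.5 counts, and had the same order of libraries. It was the only inducible gene above 10 TPM, although after the rescaling to coding genes Hsph1 and Dnajb1 also passed that level. The level of Hsp90ab1 was 2.94, 3.16 and 3.23 times that of Hsp90aa1 in replicates 1, 2 and 3, and the groups of values did not overlap.

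Transcripts of Hsp90aa1 were divided differently by the deposited quantifications. In the table made by alignment, the retained-intron transcript Hsp90aa1-204, which is 325 bases long, was given 28.9%, 24.7% and 23.9% of the gene's TPM from 91.3, 133 and 171 counts. Those counts were 1.21 ± 0.221% of the gene's counts. In the pseudoalignment table the same transcript had 23.2%, 17.3% and 0.264% of TPM, so its share in replicate 3 was near 0 in one table and 23.9% in the other. The coding transcripts Hsp90aa1-201 and Hsp90aa1-202 had 25.4 ± 7.39% and 47.8 ± 11.2% of TPM by alignment, and 63.1 ± 12.8% and 16.8 ± 5.23% by pseudoalignment, so the leading transcript depended on the method. With protein-coding transcripts alone Hsp90aa1 stood at 48.7, 38.6 and 57.1 TPM (48.1 ± 9.29), and Hsp90ab1 was 4.21 times as high. Hsp90ab1 itself had 99.2 ± 0.265% of its TPM in a single transcript, Hsp90ab1-201. Pseudogenes took 0.590% as many counts as Hsp90aa1, and the 2 pseudogenes of Hsp90ab1 had 0 counts.

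**Figure D2:**
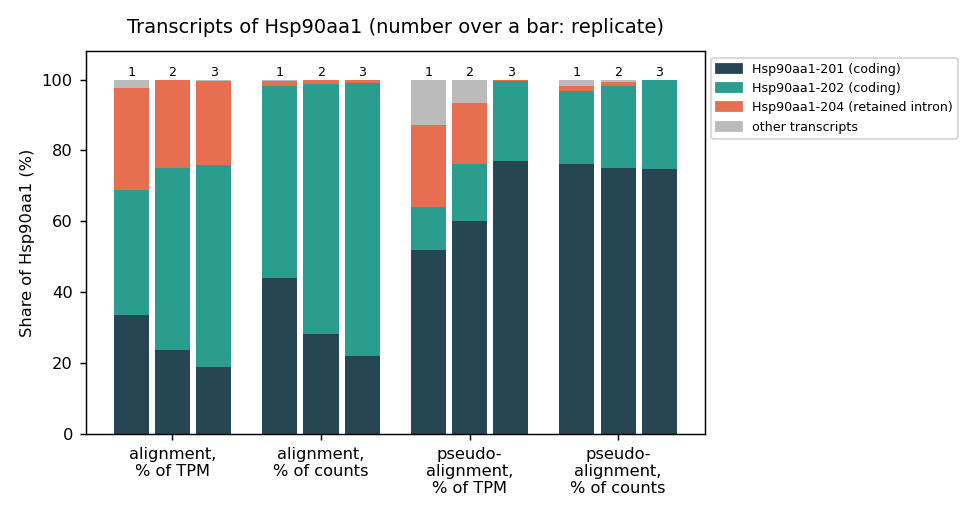
Share of Hsp90aa1 (%) in each annotated transcript, stacked to 100%, for replicates 1, 2 and 3 in the alignment and pseudoalignment tables, by TPM and by counts. The retained-intron transcript takes 23.9% to 28.9% of TPM by alignment but about 1% of counts, and the larger coding transcript is Hsp90aa1-202 by alignment and Hsp90aa1-201 by pseudoalignment.

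The HSP40 genes had the same order, with the constitutive one above the inducible one. Dnaja1, a farnesylated J-domain partner of HSC70, lies at chr4:40722150-40737149 on the plus strand (ENSMUSG00000028410.13). Dnaja1 stood at 81.9, 43.1 and 59.1 TPM (61.3 ± 19.5), from 7979, 9108 and 14190 counts. Replicate 1 was the highest library and replicate 2 the lowest. Dnajb1 encodes HSP40 (HDJ1), which loads the inducible HSP70 and takes part in turning off HSF1, and lies at chr8:83608193-83612653 on the plus strand (ENSMUSG00000005483.10). Dnajb1 stood at 6.36, 5.14 and 6.45 TPM (5.98 ± 0.732), from 809, 1333 and 1848 counts, with the smallest spread among the chaperone genes that were tested. Dnaja1 was 12.9, 8.38 and 9.16 times as high as Dnajb1. Dnaja1 overlaps Smu1 on the opposite strand over 608 bases, and Smu1 had 1531, 2766 and 3082 counts. The sources do not state whether counting used strand, so reads in that overlap cannot be told apart. Its 3 pseudogenes had 1.06% as many counts as Dnaja1. Of the 3 RefSeq windows of Dnaja1 only the most upstream holds GAANNTTC, printed because Dnaja1 is the only constitutive gene with an entry. The site is at chr4:40722333-40722362 on the plus strand and lies within exons of Dnaja1-207 and of the lincRNA Gm6297.

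Dnaja1 site 1: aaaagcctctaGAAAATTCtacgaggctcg

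Hspb1, the gene of HSP25 (HSP27 in humans), a small heat shock protein that holds unfolded proteins without ATP, was barely detected. It lies at chr5:135887919-135889563 on the plus strand (ENSMUSG00000004951.10). Hspb1 stood at 0.160, 0.160 and 0 TPM from 5, 10 and 0 counts. The absence of counts in replicate 3 allows up to 0.0429 TPM (3 counts, counting error only). Of 7 other small heat shock protein genes 4 had 0 counts in every library, Cryab stood at 0.187 ± 0.0551 TPM, and Hspb6 was the highest at 1.00 ± 0.0529 TPM. A single pseudogene of Hspb1 had 0 counts. The Hspb1 promoter has 2 matches to GAANNTTC, centred at -113.5 and -93.5 from the start site. They are at chr5:135887791-135887820 and chr5:135887811-135887840 on the plus strand, outside annotated exons, and the printed stretches share 10 bases.

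Hspb1 site 1: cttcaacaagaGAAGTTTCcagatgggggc
Hspb1 site 2: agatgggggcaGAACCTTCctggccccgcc

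Hsf1, the transcription factor gene at chr15:76477422-76501913 on the plus strand (ENSMUSG00000022556.11), was expressed at a low level. Hsf1 stood at 4.54, 4.52 and 4.39 TPM (4.48 ± 0.0814), from 382, 751 and 813 counts. In TPM it had the smallest SD relative to its mean of the 10 genes. This evenness depends on the scale. Rescaled to coding genes Hsf1 stood at 13.2, 16.3 and 15.8, and its protein-coding transcripts alone stood at 3.19, 3.90 and 4.07 TPM. Transcript Hsf1-205 took 68.9 ± 7.41% of its TPM, and 83.1 ± 11.4% lay in protein-coding transcripts. Of the other family genes Hsf2 stood at 3.27 ± 0.657, Hsf4 at 1.03 ± 0.177 and Hsf5 at 0.00333 ± 0.00577 TPM. Hsbp1, which encodes a small protein that binds the trimer domain of HSF1, was far higher at 61.2 ± 3.41 TPM. Regulation of HSF1 is known to act largely on the protein, which RNA levels do not show.

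The contrast of the classes was steady over libraries. The 3 constitutive genes summed to 901, 579 and 881 TPM, and the 6 inducible genes to 89.9, 64.1 and 95.5 TPM. The ratio was 10.0, 9.02 and 9.22, or 3.23 ± 0.0802 on the log2 scale (SD, n = 3). Constitutive genes thus held 89.9 ± 0.566% of the summed TPM and inducible genes 9.56 ± 0.466%, of which Hsp90aa1 alone held 7.57 ± 0.429%. Without Hsp90aa1 the other 5 inducible genes held 1.99 ± 0.0602%, and the ratio became 5.50 on the log2 scale, or 45.2 times. With Dnaja1 counted as inducible the ratio was 2.33 on the log2 scale, and with protein-coding transcripts alone it was 3.59. Among the pairs the gap was widest in HSP70, where Hspa8 was 133, 195 and 119 times the sum of Hspa1a and Hspa1b (7.19 ± 0.374, log2). It was 3.32 ± 0.327 for Dnaja1 over Dnajb1 and 1.64 ± 0.0723 for Hsp90ab1 over Hsp90aa1. The constitutive gene was higher in 3 of 3 libraries for each pair. Without replicate 1 the mean log2 ratios were 3.19 for the classes, 7.26 for HSP70, 3.13 for HSP40 and 1.68 for HSP90. No p-value is given for these ratios because 3 libraries of a single condition cannot reach 0.05 in an exact sign-flip test.

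**Figure D3:**
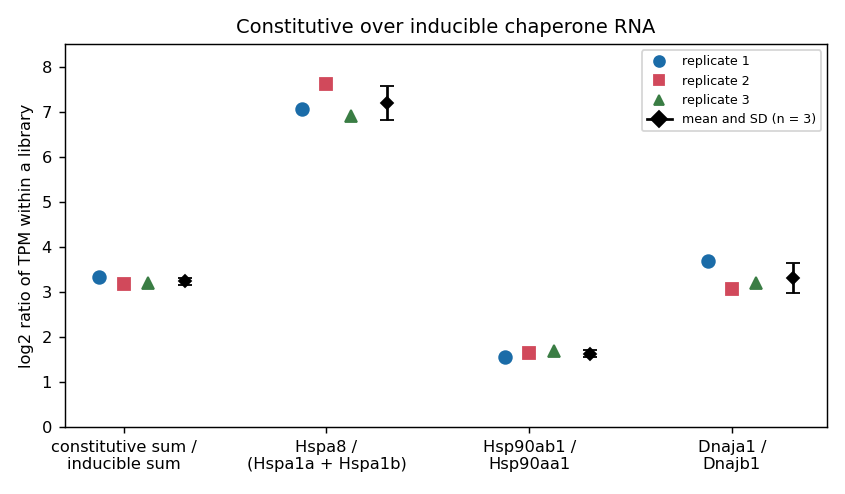
log2 ratio of TPM within each library, for the summed constitutive over the summed inducible genes and for the 3 pairs. Points are replicates 1, 2 and 3, and diamonds with bars are mean and SD (n = 3). The HSP70 pair has the widest gap, from 6.90 to 7.61, and the HSP90 pair the narrowest.

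Whether the chaperone genes varied between libraries was read from counts. Libraries were compared on CPM, the counts relative to a library total scaled by edgeR's TMM factors, since TPM moves with the share of noncoding RNA. A chi-square test per gene, with Benjamini-Hochberg adjustment over all 12515 genes tested, asked whether the 3 libraries differ by more than counting error. It called 71.5% of all genes, and 8 of the 9 members tested, all but Hsf1, so this count is near the background. Hspb1 had too few counts to be tested. The largest adjusted p among the 8 was 2.83e-13, for Dnajb1, and that of Hsf1 was 0.0685. Without replicate 3 Dnajb1 was no longer called (adjusted p 0.380, chi-square test). Hsf1 was called without replicate 2 (adjusted p 0.0337) and also with unscaled totals, without a filter or with pseudoalignment counts (0.0168, 0.00325 and 0.0258). Over its alternatives the adjusted p of Hsf1 ranged from 0.00325 to 0.936. Without replicate 1 the test called 40.4% of all genes and the same number of members, 8 of 9.

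The biological coefficient of variation (BCV) is the SD between libraries relative to the mean after counting error is removed. It was estimated per gene in edgeR, which draws each value towards those of genes of similar level. The BCV had a median of 0.208 over the 9 members and 0.172 over all genes tested. It lay above the median of all genes in 7 of the 9 members, the exceptions being Dnajb1 and Hsf1. Hspa1b was the most variable member at 0.427, above 95.1% of genes, followed by Hspa1a at 0.295, above 75.3%. The lowest BCV was 0.153, for Dnajb1. The common BCV, a single value fitted over all genes, fell from 0.235 to 0.116 without replicate 1. The members' median of values per gene was 0.159 without replicate 1. It is a different measure and cannot be set against the common BCV.

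Replicates 2 and 3 differed in a shared direction in nearly all members. Hspa8 stood at 1769, 1310.1 and 2101 CPM, Hsp90ab1 at 693, 645 and 998 CPM and Hsp90aa1 at 207, 199 and 306 CPM in replicates 1, 2 and 3. Hspa1a stood at 10.1, 6.14 and 13.5 CPM, Hspa1b at 8.02, 2.85 and 9.80 CPM and Hsph1 at 35.8, 26.6 and 47.4 CPM. Dnajb1 stood at 26.0, 24.8 and 32.2 CPM, with the same order of libraries. In each of these 7 genes replicate 3 was the highest and replicate 2 the lowest, an order found in 8.74% of all genes tested. Dnaja1 differed only in having replicate 1 on top, at 256, 169 and 247 CPM. Hsf1 stood at 12.3, 14.0 and 14.2 CPM and did not share the order. From replicate 2 to replicate 3 the difference in log2 CPM was 0.68 for Hspa8, 1.14 for Hspa1a, 1.78 for Hspa1b and 0.83 for Hsph1. It was 0.63 for Hsp90ab1 and for Hsp90aa1, 0.55 for Dnaja1, 0.38 for Dnajb1 and 0.02 for Hsf1. The central 90% of all genes lay between -0.53 and 0.44, so 7 of 9 members were above its upper end. This comparison does not use replicate 1. The members were chosen with earlier results of these data known, so these counts describe the members and are not a test.

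Set against the mean of the other libraries, the members' median log2 CPM was 0.01 in replicate 1, -0.56 in replicate 2 and 0.58 in replicate 3, while the medians of all genes were -0.01, 0.00 and 0.00. In replicate 2 there were 8 of 9 members below the lower quartile of all genes (-0.18), and in replicate 3 there were 8 of 9 above the upper quartile (0.13). Hspa1b departed most, by -1.64 in replicate 2 and 1.04 in replicate 3. Together the 10 genes took 0.295%, 0.243% and 0.380% of gene counts. Of the 12 macrophage markers 2 had replicate 3 highest and replicate 2 lowest, and the median departures of the list were -0.13 in replicate 2 and 0.04 in replicate 3. Among them Adgre1 departed by -0.55 in replicate 2 and 0.62 in replicate 3. The neutrophil markers S100a9 and S100a8 were higher in replicate 3 by 0.62 and 0.83. From replicate 2 to replicate 3 the median difference was 0.61 for these 2 genes, 0.17 for the macrophage markers and 0.63 for the 9 members. Above the 95th percentile of all genes in that difference were 2 of 2 neutrophil markers tested and 2 of 12 macrophage markers. The neutrophil list held 6 genes. Ly6g, Elane, Mpo and Camp, with 0 to 12 counts in each library, had too few to be tested. Above its upper quartile were 7 of the 12 macrophage markers. The part of the neutrophil markers in the pattern was not tested.

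**Figure D4:**
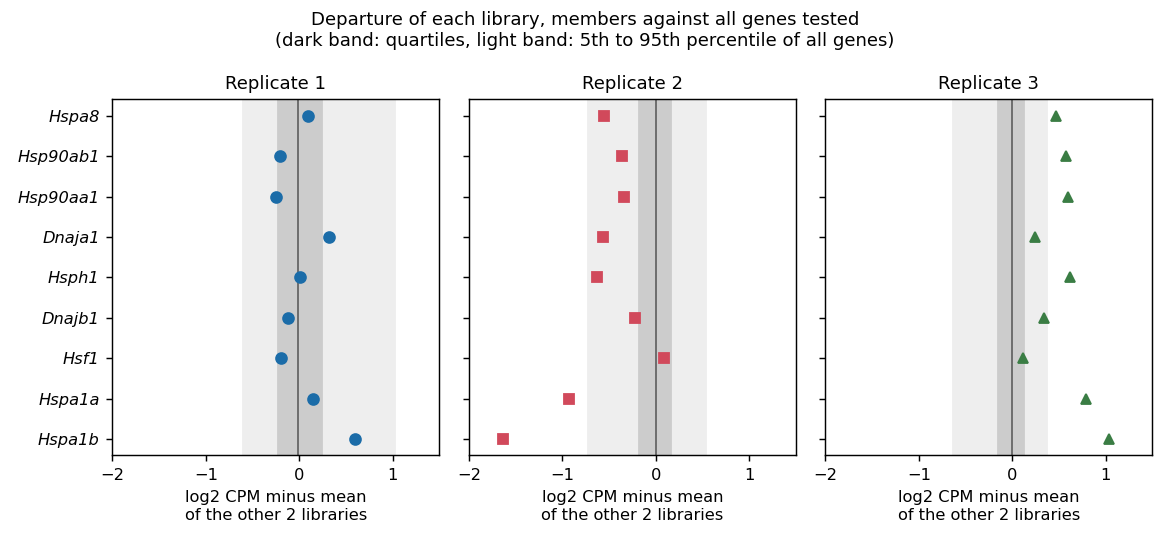
Departure of each library in log2 CPM, its value minus the mean of the other 2 libraries, for the 9 tested members. Dark bands span the quartiles and light bands the 5th to 95th percentile of all 12515 genes. Of the 9 members 8 lie left of the dark band in replicate 2 and 8 lie right of it in replicate 3, with Hsf1 inside it in both.

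Other chaperone genes were taken from lists by compartment and family. The 19 co-chaperones of HSP70 and HSP90, led by the HSP90 activator Ahsa1 at 66.1 ± 7.73, the HSP70 exchange factor Bag1 at 63.2 ± 2.20 and the kinase adaptor Cdc37 at 41.5 ± 2.43 TPM, had a median level of 7.24 TPM. Their lowest members were Fkbp5 at 1.58 ± 0.426 and Bag2 at 0.397 ± 0.0551 TPM. All 19 were called as varying between libraries, as were 71.5% of all genes. In replicate 3, 14 of them were above the upper quartile of all genes, but in replicate 2 only 5 were below the lower quartile, and their median departures in replicates 1, 2 and 3 were -0.19, -0.01 and 0.20. The 17 chaperones of the endoplasmic reticulum had a median of 44.7 TPM, led by Calr at 215 ± 36.8, Hspa5 (BiP) at 177 ± 11.3 and Hsp90b1 (GRP94) at 117 ± 14.7 TPM. Of these 15 were above the upper quartile in replicate 3 and 2 below the lower quartile in replicate 2, with median departures of -0.32, 0.00 and 0.30 in replicates 1, 2 and 3. Both lists were thus low in replicate 1, which enters the departure of replicate 3. From replicate 2 to replicate 3 alone, the median difference in log2 CPM was 0.23 for the co-chaperones, 0.21 for the chaperones of the endoplasmic reticulum and 0.63 for the 9 members, against 0.01 for all genes. Of the co-chaperones 0 of 19, of the endoplasmic reticulum genes 1 of 17 and of the members 7 of 9 exceeded the 95th percentile of all genes in that difference. Above its upper quartile were 12 of 19, 11 of 17 and 8 of 9, against 3129 of all 12515 genes. Both lists thus leaned the same way as the members, by less. Replicate 3 was highest and replicate 2 lowest in 6 co-chaperones and 2 endoplasmic reticulum genes, against 8.74% of all genes.

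The 10 mitochondrial chaperones, led by Hspa9 at 66.1 ± 8.88, Hspe1 at 51.3 ± 2.11 and Hspd1 at 39.0 ± 1.35 TPM, had 0 members below the lower quartile in replicate 2 and 4 above the upper quartile in replicate 3. The 14 genes of the cytosolic chaperonin TRiC and prefoldin, led by Pfdn5 at 51.7 ± 2.54 TPM, had 0 and 8. Of 11 other HSP40 genes tested, with Dnajb6 highest at 54.0 ± 7.47 TPM, 3 were below in replicate 2 and 2 above in replicate 3. Of 7 other HSP70 and HSP110 genes tested, with Hspa4 highest at 35.1 ± 4.77 TPM, the counts were 1 and 2. The test called 9 of 10 mitochondrial, 11 of 14 TRiC and prefoldin, 10 of 11 HSP40 and 3 of 7 HSP70 and HSP110 genes, beside 71.5% of all genes. From replicate 2 to replicate 3 the median differences of these lists in log2 CPM were -0.05, 0.07, 0.08 and 0.06. Of 13 immediate early genes tested, 3 were below in replicate 2 and 7 above in replicate 3. Their departures in replicate 1 went both ways, with a median of 0.06. Those of Atf3, Klf6 and Zfp36, the highest by level, were 0.35, 0.50 and 0.13, and that of Egr2, the lowest tested, was -1.86. From replicate 2 to replicate 3 the median difference of the list was 0.09.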

How the data were processed

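Ribosomal RNA-depleted cytosolic RNA of 3 libraries of 1 condition was analysed. The authors deposited expected counts and TPM per gene and transcript (column names of RSEM, per the file headers), on mm10 with GENCODE M21 per the deposited notes, and a second transcript table of estimated counts and TPM (column names of kallisto, per the file headers). Transcript shares of TPM by alignment are a deposited percent of the gene's TPM. Shares by pseudoalignment and all shares of counts were calculated from the deposited values. Also deposited by the authors were the posterior SD of counts and credibility bounds of TPM. The sources used here do not give tool versions or the strand setting. Totals of 32108408 to 57117456 expected counts set the depth.

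Counts were rounded, filtered with filterByExpr and TMM-scaled in edgeR 4.0.16 (R 4.3.3), with prior count 2 for log2 CPM. The 26345 non-gene entries stayed out and held 139733, 71391 and 47024 counts. The chi-square test is called at an adjusted p under 0.05. It was run on simulated data that held counting error alone, with changes added to some genes. That is the assumption of the test itself, so the simulation checks the procedure and not the spread between real libraries. A detected gene reaches 1 TPM in every library. Promoters are RefSeq GRCm38.p6; similar transcripts were found with BLAST 2.17.0. Other tools were Python 3.11.15, pandas 2.3.3, scipy 1.17.1 and matplotlib 3.10.9. Alternatives used DESeq2 1.42.0 size factors, unscaled totals, no filter, pseudoalignment values, a pseudocount of 1 TPM, other class memberships and each library left out.

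The members and gene lists were chosen with earlier results of these data known. All 10 members are described. Of other lists the 3 highest and 2 lowest genes may be named, and every gene of lists of 6 or fewer. S100a8 and S100a9 fall under that rule.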

Additional observations from a re-analysis of the deposited data

How the results depend on the processing

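The number of genes varying beyond counting error was 8954, and 8945 to 11937 with other scalings, no filter or pseudoalignment counts. Leaving out 1 library gave 5126 to 7667, and the 5126 without replicate 1 was the only alternative over 1.5 times away. Members called ranged from 7 to 10, the highest without the filter, where Hspb1 could be tested (adjusted p 0.0128, chi-square test). The members' median departures kept their sign in replicates 2 and 3 (-0.62 and 0.62 without replicate 1, chosen after seeing the data), while that of replicate 1 was near 0 and changed sign (0.01 to -0.10). The log2 ratio of constitutive to inducible genes was 3.10 on expected counts, 3.14 with a pseudocount of 1 TPM, 5.50 without Hsp90aa1, 2.33 with Dnaja1 as inducible and 3.59 with protein-coding transcripts only (the last chosen after seeing the data). Hspa8 over Hspa1a plus Hspa1b was 6.77 on expected counts and 6.51 with the pseudocount. Hsp90ab1 over Hsp90aa1 was 1.71 on expected counts and 2.07 with protein-coding transcripts only. Dnaja1 over Dnajb1 was 3.69 by pseudoalignment TPM. The cause of these shifts was not tested, apart from the change of members or transcripts summed. No ratio changed sign under the alternatives run. Pseudoalignment gave lower TPM (Hspa8 238 against 521), but after rescaling both tables to nuclear-encoded coding genes the levels of the 9 members other than Hspb1 were 0.920 to 1.21 times the alignment levels. No paired analysis was possible because the libraries form 1 group. Depth limits Hspb1 most, at 5, 10 and 0 counts.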
